A study of Homo sapiens with 12 samples.

Results

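The genes described here are 9 human genes listed as starvation targets of the FOXO and MondoA transcription factors. They are TXNIP, ARRDC4, ARRDC3, IRS2, CCNG2, BCL6, PIK3IP1, INSR and CITED2. They were taken by symbol from a table of 19901 protein-coding genes, and all 9 were found. The name serves as a label only, since 4 of the 8 tested genes were called higher with serum. RNA-Seq had been done on HCT116 cells, a human colorectal carcinoma line, carrying a degradation tag on KAP1 (the protein made from TRIM28), and all libraries came from 1 clone, D5. Each group of 3 libraries was kept in medium without serum for 48 h, and the solvent DMSO or the degrader dTAG was added 8 h before the serum step. DMSO-S0 received DMSO and no serum, DMSO-S30 received DMSO and then serum for 30 min, dTAG-S0 received dTAG and no serum, and dTAG-S30 received dTAG and then serum for 30 min. The DMSO groups therefore carried the same tag and went through the same starvation, and no group had been kept in serum throughout.

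FOXO proteins are transcription factors that AKT phosphorylates and keeps out of the nucleus while insulin or growth factors activate PI3K, and that enter the nucleus when these signals fall. MondoA, made from MLXIP, pairs with MLX, binds DNA at carbohydrate response elements and is activated by glucose 6-phosphate. Several of their targets act as brakes on nutrient uptake or growth factor signalling, and serum given to starved cells restores the signals that the FOXO proteins respond to.

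Promoter letters that match the motifs searched for these factors are shown for 5 of the genes. Windows of 250 bases before and 50 bases after each RefSeq transcription start were searched on both strands, and the 9 genes had 15 such windows. GTAAACA, the forkhead core, was present in 3.42% of 35116 windows of all genes. It was in 3 of the 15 windows here (TXNIP, ARRDC3 and PIK3IP1). The longer GTAAACAA, which contains the core, was in 0.954% of windows and in 2 of the 15 (TXNIP and ARRDC3). CACGTG, the E-box, was in 7.26% of windows and in 3 of the 15 (ARRDC4, CCNG2 and CITED2). The carbohydrate response element was searched as a pair of E-box-like sites 5 bases apart (it can overlap an E-box). It was in 0.057% of windows and in 1 of the 15 (TXNIP). The stretches below are from GRCh38.p14 as given by RefSeq, read 5′ to 3′ on the strand of the gene, with the matched letters in capitals.
TXNIP, chr1:145996639-145996715, minus strand: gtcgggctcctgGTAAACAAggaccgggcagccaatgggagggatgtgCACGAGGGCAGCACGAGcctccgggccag
ARRDC3 (a second start), chr5:91380108-91380139, minus strand: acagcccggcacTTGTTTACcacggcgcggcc
ARRDC4, chr15:97960481-97960510, plus strand: aaacggcctgtgCACGTGcacgccggagcc
CCNG2, chr4:77157165-77157194, plus strand: tccgcggggagtCACGTGccccgccccctt
CITED2, chr6:139374784-139374813, minus strand: cagcctctgcagCACGTGccgcgggcggcg
In the TXNIP stretch the first capitals are the forkhead letters and the second are the carbohydrate response element, which lies 88 to 72 bases before the start. In the ARRDC3 stretch the forkhead letters lie on the opposite strand. In the PIK3IP1 window the match lay 16 to 22 bases after the first transcribed base of a second start, and it is not printed. Forkhead letters and a carbohydrate response element were matched together only in TXNIP, while ARRDC4, CCNG2 and CITED2 matched the E-box alone. A match describes letters only and is no measure of binding.

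The libraries held 20537682 to 26278707 counts, of which 7.97% to 9.37% came from ERCC spike-ins (synthetic RNA added in a fixed amount). Spearman's rho between replicates was 0.996 to 0.998 across genes. Values are given as normalised CPM, which are counts relative to a library size scaled by its upper quartile. Counting took in introns, so unspliced RNA adds to every value. FOS and ATF3, immediate early genes that check the serum labels, were higher with serum in DMSO-treated cells by 6.48 and 6.06 on the log2 scale. For TRIM28 RNA the dTAG libraries differed from DMSO by -0.06 and -0.04 on the log2 scale before and after serum, and since the tag acts on the protein this checks nothing about KAP1 loss. Of 9 colorectal epithelial markers 5 were expressed (EPCAM, CDH1, KRT8, KRT18 and CDX2), while VIL1, CDX1, KRT20 and CDH17 had at most 7 counts in any library.

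TXNIP, which encodes an arrestin that binds thioredoxin and limits glucose uptake, was listed at 0 counts in all 12 libraries. Its row (ENSG00000265972.5, hg38 chromosome 1, 145992435 to 145996600, minus strand) overlapped no other gene of the table. A count of 0 allows up to 3 counts, which in these libraries is 0.125 to 0.159 CPM per library, for counting error only. The genes on either side did have counts. POLR3GL, a subunit of RNA polymerase III, had 203 to 288 and LIX1L 465 to 698, both at lower coordinates, and HJV, at higher coordinates, had 4 to 40. The 4166 bases of the row were found once in full in a copy of hg38 with 455 sequences, 261 of them alternate, and nowhere else. In all, 2167 genes of the table (10.9%) were at 0 in every library. Why TXNIP was at 0 was not tested, and no level, change or comparison is given for it below.

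The other 8 genes passed the filter of at least 10 counts in 6 libraries, and none did so through a single group, since the lowest count of any of them in any library was 87 (ARRDC4). Levels between genes were compared as CPM per kilobase of the gene row, introns included, averaged over the 12 libraries. CITED2 was highest at 14.1 CPM per kilobase, followed by ARRDC3 at 5.61 CPM per kilobase and BCL6 at 1.34. PIK3IP1 was at 0.831, IRS2 at 0.524, INSR at 0.514, ARRDC4 at 0.434 and CCNG2 at 0.326 CPM per kilobase. This ranking holds per kilobase only, since it depends on the length of the row. Without division by length INSR was highest, at 93.5 CPM, with ARRDC3 at 82.2 CPM and CITED2 at 39.75 CPM. The INSR row is 181.781 kb long and the CITED2 row 2.815 kb. The order of BCL6 and PIK3IP1 differed with serum: without it BCL6 was below PIK3IP1 (0.772 against 1.02 CPM per kilobase in DMSO-S0 and 0.808 against 0.938 in dTAG-S0), and with it BCL6 was above (2.04 against 0.737 in DMSO-S30 and 1.72 against 0.626 in dTAG-S30). Lower in the ranking, the order of the IRS2 and INSR group means also differed with serum. Without it IRS2 was below INSR (0.433 against 0.530 CPM per kilobase in DMSO-S0 and 0.436 against 0.515 in dTAG-S0). With it IRS2 was above (0.641 against 0.490 in DMSO-S30 and 0.584 against 0.522 in dTAG-S30). Group means of ARRDC4 ran from 0.327 to 0.537 CPM per kilobase, so its place also differed by group. The row of CCNG2 spans 276238 bp, which is 21.5 times the RefSeq gene, and its level per kilobase was computed over that span, whereas the rows of the other 7 genes were 0.990 to 1.01 times theirs. None of the 9 rows overlapped another gene of the table.

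The first question was how 30 min of serum changed these RNAs in DMSO-treated cells, which were not given the degrader. The genes did not move as 1 block. BCL6, CITED2, IRS2 and ARRDC3 rose, PIK3IP1 and CCNG2 fell, and ARRDC4 and INSR did not pass the test. In all, 6 of the 8 tested genes passed an edgeR adjusted p under 0.05, where 26.3% of all 13093 genes did. The 4 that rose stand beside 9.18% of all genes called higher, and the 2 that fell beside 17.1% called lower. Shares by direction, here and below, depend on the scaling. Of all serum calls in DMSO-treated cells 35.0% were higher, against 61.4% under TMM scaling. The median log2 fold change over the 8 genes was 0.14, against -0.07 over all genes. The same 6 genes were those whose 3 libraries with serum did not overlap the 3 without, as for 44.4% of all genes. In whole-culture RNA of this kind, fewer cells of a state and less RNA per cell cannot be told apart.

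In DMSO-treated cells BCL6 and CITED2 had the largest fitted changes of the 8 genes, and both encode nuclear regulators. BCL6 is a zinc finger repressor. Its level was 18.4, 18.3 and 19.6 CPM in DMSO-S0 and 45.0, 48.1 and 56.3 CPM in DMSO-S30. All 3 libraries with serum were above all 3 without, and the log2 fold change was 1.41 ± 0.0868 (SE), or 2.66-fold, with an edgeR adjusted p of 5.06e-13. In dTAG-treated cells BCL6 was at 19.7, 19.2 and 20.1 CPM without serum and 42.4, 38.9 and 44.3 CPM with it. These groups did not overlap either, and the log2 fold change was 1.08 ± 0.0842 (SE; edgeR adjusted p = 8.21e-11). CITED2 competes with hypoxia-inducible factors for the coactivators CBP and p300. It was at 30.4, 27.4 and 29.5 CPM in DMSO-S0 and at 55.1, 53.7 and 50.3 CPM in DMSO-S30, again without overlap. The rise was 0.89 ± 0.0816 (SE) on the log2 scale, or 1.86-fold (edgeR adjusted p = 1.92e-09). With dTAG, CITED2 went from 29.5, 27.8 and 31.3 CPM to 41.4, 52.1 and 48.4 CPM, a log2 fold change of 0.66 ± 0.0790 (SE; edgeR adjusted p = 3.03e-07).

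CCNG2, or cyclin G2, is an unusual cyclin tied to cell cycle arrest, and it went the other way. Its counts are over the whole 276238 bp row, and how many of them fall outside the RefSeq gene was not tested. Its libraries read 105, 97.3 and 103 CPM in DMSO-S0 and 86.8, 86.7 and 79.3 CPM in DMSO-S30. Every library with serum was below every library without, by 0.27 on the log2 scale in the fit (log2 fold change -0.27 ± 0.0668, SE; edgeR adjusted p = 0.00365). With library sizes taken from the ERCC spike-ins, the CCNG2 value was -0.21 and no longer passed (edgeR adjusted p = 0.0851). In dTAG-treated cells CCNG2 was at 99.2, 94.5 and 97.6 CPM without serum and at 76.1, 83.9 and 70.2 CPM with serum. The groups were separate, with a log2 fold change of -0.34 ± 0.0651 (SE; edgeR adjusted p = 0.00033).

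The 3 genes of insulin signalling showed 3 different patterns. IRS2, the adaptor that links the insulin receptor to PI3K, was at 13.8, 14.2 and 15.9 CPM in DMSO-S0 and at 22.9, 19.6 and 22.7 CPM in DMSO-S30. The groups were separate, and IRS2 rose by 0.55 ± 0.101 (SE) on the log2 scale, or 1.46-fold (edgeR adjusted p = 0.000197). With dTAG it went from 14.5, 16.5 and 13.4 CPM to 18.3, 20.4 and 20.6 CPM (log2 fold change 0.43 ± 0.0985, SE; edgeR adjusted p = 0.00189). INSR, the insulin receptor itself, was at 97.5, 90.2 and 101 CPM in DMSO-S0 and 88.9, 92.0 and 86.4 CPM in DMSO-S30, and these ranges overlapped. Its log2 fold change was -0.10 (95% confidence interval -0.22 to 0.03; edgeR adjusted p = 0.237). In dTAG-treated cells INSR was at 92.9, 90.1 and 97.6 CPM before and 91.5, 95.1 and 98.3 CPM after serum, and its log2 fold change was 0.01 (95% confidence interval -0.11 to 0.14; edgeR adjusted p = 0.890). Neither INSR interval reached that of IRS2 (0.34 to 0.76 with DMSO and 0.23 to 0.64 with dTAG).

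PIK3IP1, a membrane protein that inhibits PI3K, fell with serum. It was at 11.1, 11.5 and 11.1 CPM in DMSO-S0 and at 8.05, 8.02 and 8.11 CPM in DMSO-S30. The spread within each group was small beside the gap, and the log2 fold change was -0.47 ± 0.120 (SE; edgeR adjusted p = 0.00456). In dTAG-S0 the PIK3IP1 libraries were less alike, at 9.17, 9.48 and 12.2 CPM, and in dTAG-S30 they were at 7.00, 6.89 and 6.66 CPM. The log2 fold change there was -0.59 ± 0.119 (SE; edgeR adjusted p = 0.000585).

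The arrestin genes ARRDC3 and ARRDC4, whose proteins bind membrane receptors and transporters and lead them to ubiquitin ligases, did not move together. ARRDC3 rose in both treatments, and ARRDC4 was called lower in dTAG-treated cells. ARRDC3 was at 66.4, 79.3 and 58.2 CPM in DMSO-S0 and at 91.6, 83.7 and 93.6 CPM in DMSO-S30. The groups did not touch, although DMSO-S0 was widely spread, and ARRDC3 rose by 0.38 ± 0.0809 (SE) on the log2 scale (edgeR adjusted p = 0.000948). Without DMSO-S0 replicate 3, the lowest library, the rise of ARRDC3 was 0.22 (edgeR adjusted p = 0.0351). In dTAG-treated cells ARRDC3 went from 77.7, 77.6 and 76.6 CPM to 98.4, 94.2 and 88.6 CPM. The log2 fold change was 0.29 ± 0.0774 (SE; edgeR adjusted p = 0.00731).

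ARRDC4, a MondoA target like TXNIP, had the lowest counts of the 8 genes (87 to 179 per library). It was at 4.61, 7.11 and 6.08 CPM in DMSO-S0 and at 4.96, 5.29 and 6.28 CPM in DMSO-S30. These groups overlapped fully, and the log2 fold change was -0.16 (95% confidence interval -0.47 to 0.15; edgeR adjusted p = 0.471). With 1 library left out the ARRDC4 value ran from -0.28 (without DMSO-S30 replicate 3) to -0.00019 (without DMSO-S0 replicate 2), and it passed in none of these fits. In dTAG-treated cells it was at 6.82, 6.88 and 7.45 CPM without serum and 4.09, 4.56 and 4.26 CPM with it. Here the groups were well apart, with a log2 fold change of -0.68 ± 0.149 (SE; edgeR adjusted p = 0.00129). The difference between both serum effects is tested further on and did not pass.

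**Figure D1:**
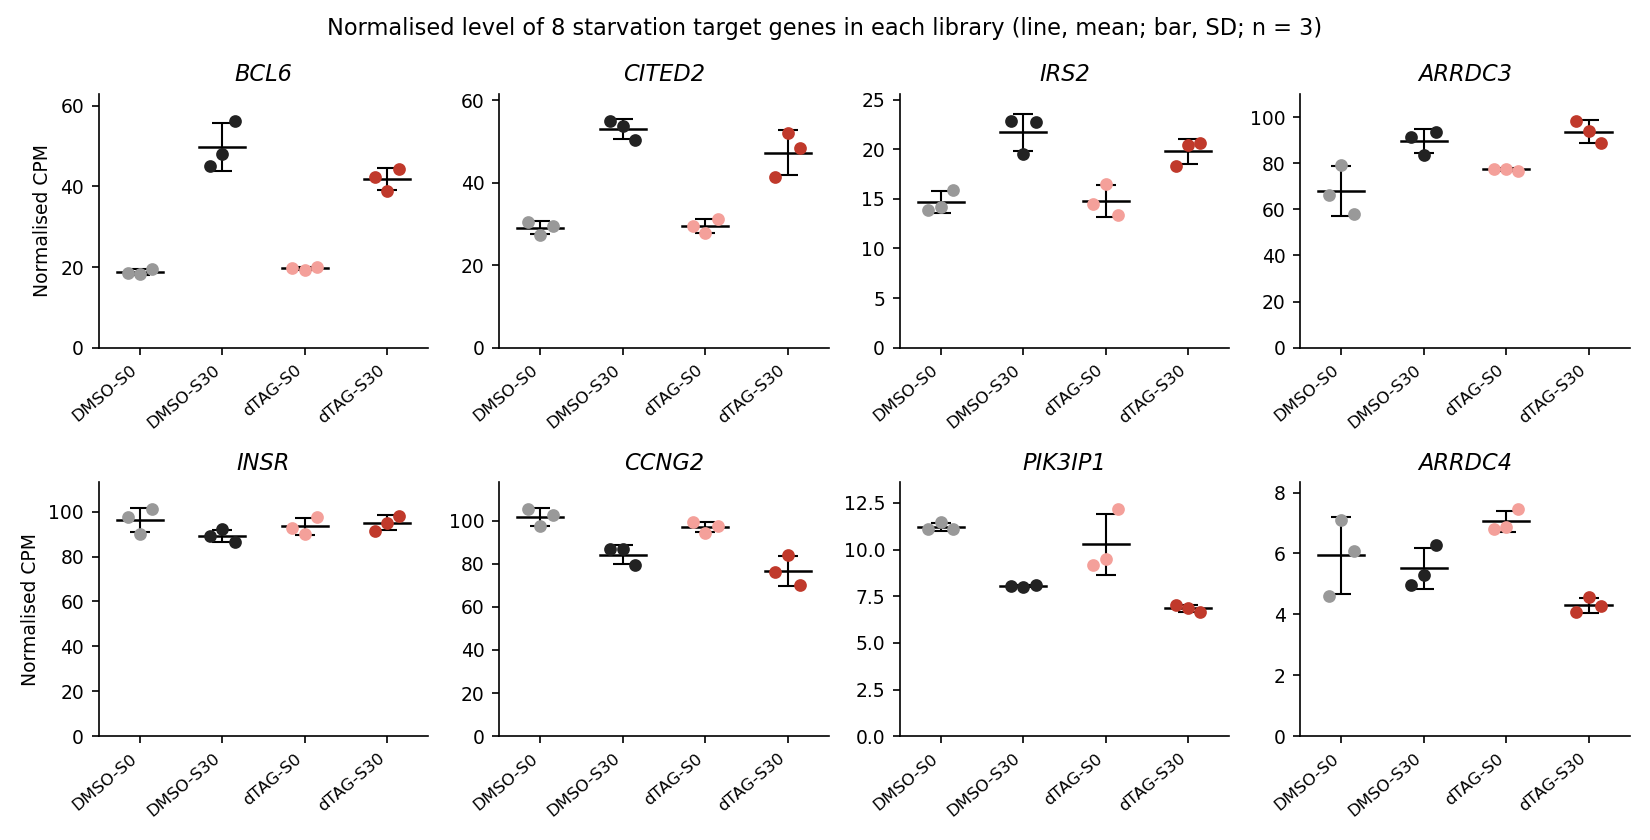
Normalised CPM (vertical axes, each from 0) of the 8 tested genes in the 4 groups (horizontal axes), with a point for each library, a line at the mean and a bar for the SD of 3 libraries. BCL6 goes from 18.3 to 19.6 CPM in DMSO-S0 up to 45.0 to 56.3 CPM in DMSO-S30, PIK3IP1 and CCNG2 go down with serum, and the ARRDC4 libraries overlap in DMSO but not in dTAG.

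The comparison of dTAG-S30 with dTAG-S0 asked the same question after KAP1 depletion. Of the 8 genes 7 passed, where 24.5% of all genes did, and the libraries of these 7 did not overlap, as for 37.5% of all genes. BCL6, CITED2, IRS2 and ARRDC3 were called higher (9.09% of all genes were) and ARRDC4, PIK3IP1 and CCNG2 lower (15.4% were). Their median log2 fold change was 0.15, against -0.06 over all genes. Markers of other cell types were checked beside these serum results. Over 9 blood, endothelial, fibroblast and smooth muscle markers, summed levels were 27.0 to 28.4 CPM in DMSO-S0, 91.3 to 95.8 CPM in DMSO-S30, 21.9 to 26.6 CPM in dTAG-S0 and 74.2 to 87.0 CPM in dTAG-S30. COL1A1, a collagen gene, carried this rise (log2 fold change 2.48 in DMSO-treated cells, edgeR adjusted p = 3.08e-18), and without it the sums were 8.54 to 13.4 CPM over all 12 libraries. The fibroblast markers COL1A2, DCN and LUM had at most 2 counts in any library.

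The comparison of dTAG with DMSO asked whether KAP1 depletion changed these genes. Without serum none of the 8 genes passed the edgeR test, where 1.31% of all genes did. At an unadjusted p under 0.05 there was 1, ARRDC3, where 11.7% of all genes were, and DESeq2 called 0. All 8 genes had overlapping libraries, where 17.7% of all genes did not overlap. The ARRDC3 value was 0.17 on the log2 scale (95% confidence interval 0.01 to 0.33; edgeR adjusted p = 0.388). DMSO-S0 replicate 2, at 79.3 CPM, lay above all 3 dTAG-S0 libraries of ARRDC3, and without it the value was 0.31 and passed (edgeR adjusted p = 0.0441). Without DMSO-S0 replicate 3, at 58.2 CPM, the ARRDC3 value was 0.0041 (edgeR adjusted p = 0.994), so it rested on which DMSO-S0 libraries were included. For ARRDC4 the log2 difference was 0.22 (95% confidence interval -0.08 to 0.51), for PIK3IP1 -0.12 (-0.35 to 0.11), and for BCL6 0.07 (-0.11 to 0.26). INSR, CCNG2, CITED2 and IRS2 lay between -0.07 and 0.04, and none of their intervals reached beyond -0.21 or 0.21.

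With serum none of the 8 genes passed the edgeR test either, where 1.23% of all genes did. At an unadjusted p under 0.05 there were 2, BCL6 and CITED2, where 10.4% of all genes were, and DESeq2 called 0. BCL6 was at 45.0, 48.1 and 56.3 CPM in DMSO-S30 and 42.4, 38.9 and 44.3 CPM in dTAG-S30. The groups did not overlap, and the log2 difference was -0.26 (95% confidence interval -0.42 to -0.09; edgeR adjusted p = 0.146). With no count filter, when 17734 genes were tested, the BCL6 value of -0.25 passed (edgeR adjusted p = 0.0351). Without DMSO-S30 replicate 3, the highest library, it was -0.15 (edgeR adjusted p = 0.634). CITED2 was at -0.19 (95% confidence interval -0.35 to -0.03; edgeR adjusted p = 0.340), with overlapping libraries. Of 4 immediate early genes that check the serum labels, 2 were called lower with dTAG here. They were FOS (log2 difference -0.32) and ATF3 (-0.41). The FOS call was lost with library sizes from the spike-ins (-0.31, edgeR adjusted p = 0.0516). It was also lost without DMSO-S30 replicate 1 (-0.25, 0.0690) or dTAG-S30 replicate 1 (-0.25, 0.0948).

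The libraries of ARRDC4, BCL6 and PIK3IP1 did not overlap between the treatments with serum, all 3 lower with dTAG, where 15.7% of all genes were separate and 8.1% in that direction. The ARRDC4 difference was -0.31 on the log2 scale (95% confidence interval -0.63 to 0.02) and that of PIK3IP1 was -0.24 (-0.50 to 0.02). CCNG2 was at -0.14 (-0.28 to 0.00) and IRS2 at -0.11 (-0.32 to 0.09), while ARRDC3 was at 0.08 (-0.08 to 0.25) and INSR at 0.08 (-0.05 to 0.21). Over the 8 genes the median was -0.17, against 0.00 over all genes. Both dTAG comparisons share libraries with the serum comparisons and are not independent of them.

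**Figure D2:**
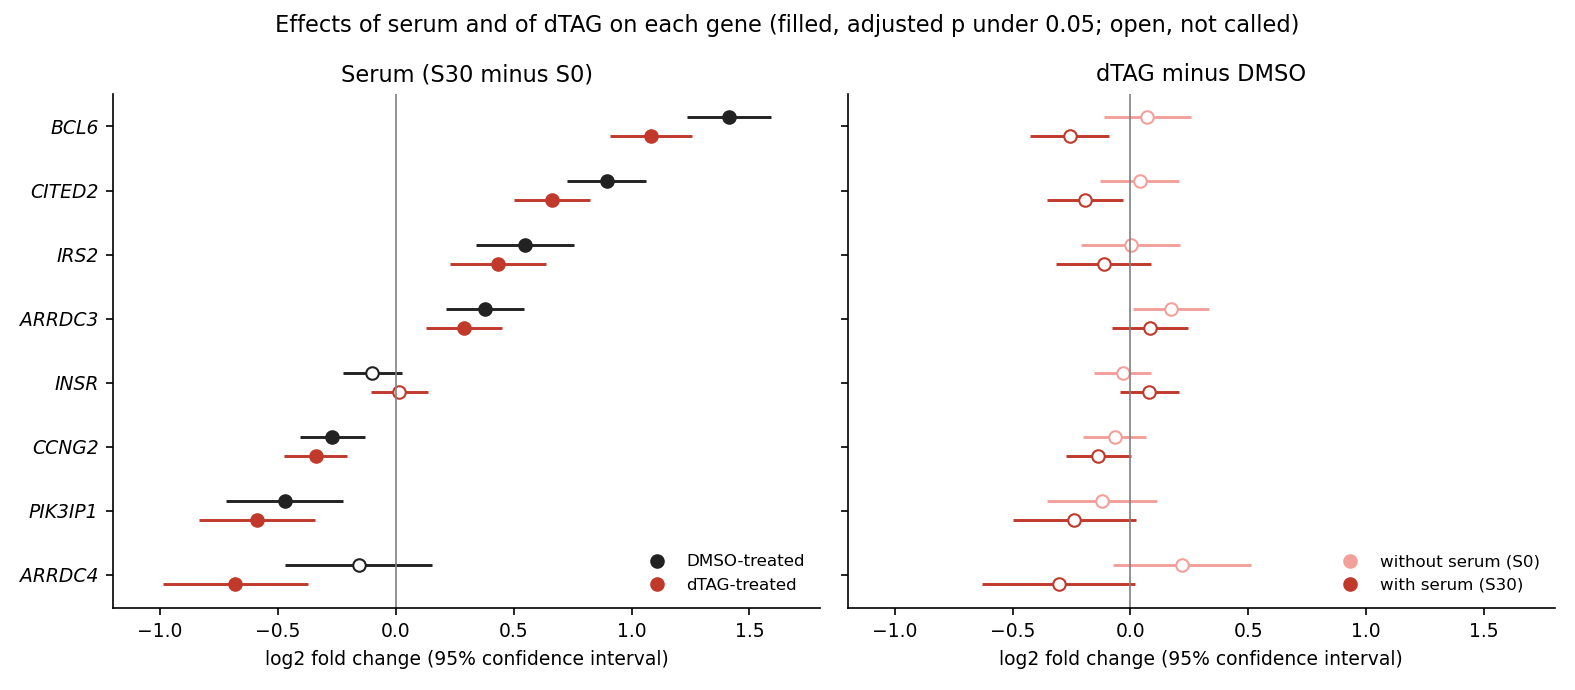
Log2 fold change (horizontal axis) of each of the 8 genes with its 95% confidence interval, for serum in both treatments (left) and for dTAG minus DMSO at both serum levels (right). Filled points passed an edgeR adjusted p under 0.05. On the left BCL6 stands at 1.41 and 1.08, and on the right every point is open.

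The interaction, which is the serum effect in dTAG-treated cells minus that in DMSO-treated cells, tested whether the responses differed. None of the 8 genes passed the edgeR test, where 0.0382% of all genes (5 genes) did. At an unadjusted p under 0.05 there were 2, ARRDC4 and BCL6, where 3.16% of all genes were, and DESeq2 called 0. The BCL6 interaction was -0.33 on the log2 scale (95% confidence interval -0.59 to -0.08), and that of ARRDC4 was -0.52 (-0.97 to -0.08). The adjusted p was 0.999878 for both. The call of ARRDC4 in dTAG-treated cells alone is thus not shown to be a difference between the treatments. Of the other genes, CITED2 was at -0.23 (-0.47 to 0.01), and PIK3IP1, IRS2, ARRDC3 and CCNG2 lay between -0.12 and -0.07. INSR, at 0.11 (-0.07 to 0.29), was the only one of the 8 above 0.

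**Figure D3:**
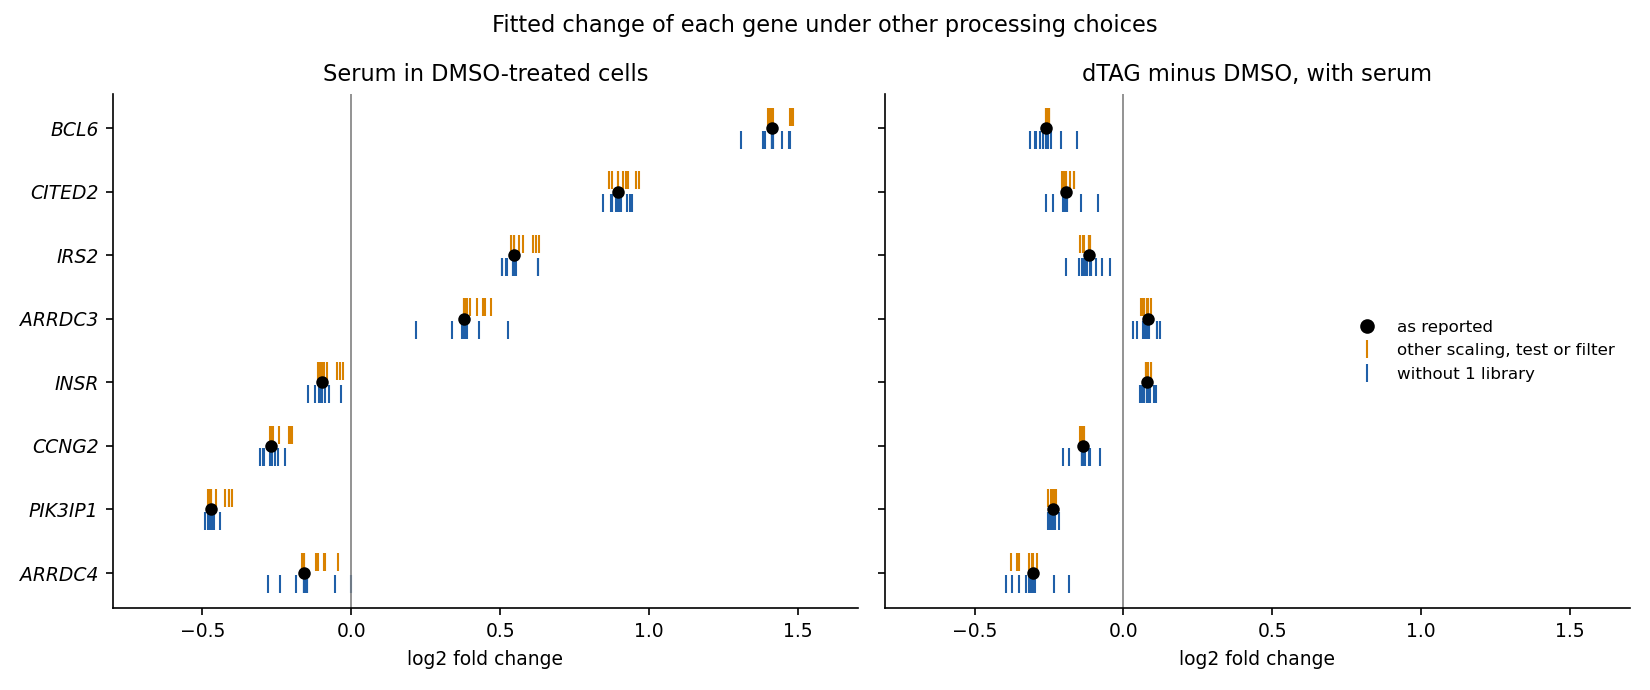
Fitted log2 fold change (horizontal axis) of the 8 genes for serum in DMSO-treated cells (left) and for dTAG minus DMSO with serum (right), as reported (black points), under other scalings, tests and filters (orange ticks) and with 1 library left out (blue ticks). The called serum values keep their sign throughout, and the ticks of ARRDC3 on the left reach from 0.22 to 0.53 when single libraries are left out.

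Among the RNAs of the factors themselves, with serum in DMSO-treated cells 0 of 7 passed the edgeR test, where 26.3% of all genes did. Of the 7, 2 (MLXIP and MLXIPL) were at an unadjusted p under 0.05, and DESeq2 called 1 (MLXIP). MLXIP, which encodes MondoA, went from 107 ± 8.78 to 120 ± 2.07 CPM (SD, n = 3), which is 0.17 on the log2 scale (edgeR adjusted p = 0.0535). This MLXIP value passed in 7 of the 9 other fits, such as TMM scaling (0.25, adjusted p = 0.00762) and DESeq2 (0.24, 0.00773), and without DMSO-S0 replicate 2 it was 0.098 (0.339). In dTAG-treated cells it rose from 110 ± 3.31 to 134 ± 10.2 CPM (SD, n = 3), and this passed (0.27, edgeR adjusted p = 0.00238). MLXIPL, the related ChREBP, was at -0.17 in DMSO-treated cells. MLX, their partner, was at -0.01 there, which turned to 0.06 under TMM scaling. FOXO3 was at -0.01, which also turned to 0.06 under TMM scaling. FOXO1 was at 0.04, FOXO4 at 0.07 and FOXO6 at 0.18. None of the 7 passed the edgeR comparisons of dTAG with DMSO, where 1.31% of all genes did without serum and 1.23% with serum. At an unadjusted p under 0.05 there were 2 without serum and 3 with serum, where 11.7% and 10.4% of all genes were.

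Other FOXO targets also moved in both directions. Of 20 listed, 19 were matched and 14 tested, and with serum in DMSO-treated cells 3 rose and 2 fell, where 9.18% of all genes rose and 17.1% fell, with a median log2 fold change of -0.05. KLF6, a zinc finger factor, rose by 2.17 (edgeR adjusted p = 1.91e-20), GADD45A, a growth arrest and DNA damage protein, by 1.69 (1.19e-15) and BCL2L11, the cell death protein BIM, by 0.55 (2.39e-07). The 2 that fell, named after their values were seen, were SESN1 (-0.39, edgeR adjusted p = 0.000739) and RBL2 (-0.22, 0.0113). SESN3, a sestrin that restrains mTORC1, was the 1 FOXO target called with dTAG, at -0.38 (edgeR adjusted p = 0.0111) in the absence of serum and -0.52 (0.000468) in its presence. Its level was 33.4 ± 1.42 CPM in DMSO-S0, 32.4 ± 0.658 in DMSO-S30, 25.9 ± 0.487 in dTAG-S0 and 22.4 ± 2.69 in dTAG-S30 (SD, n = 3). The SESN3 call without serum was lost with library sizes from the spike-ins (-0.34, adjusted p = 0.239) and without DMSO-S0 replicate 3 (-0.34, 0.149), dTAG-S0 replicate 1 (-0.35, 0.0658) or dTAG-S0 replicate 3 (-0.38, 0.0647).

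Of 5 other MondoA targets 3 rose with serum in DMSO-treated cells, where 9.18% of all genes did, and the median log2 fold change was 0.58. KLF10, a repressor, rose by 1.16 (edgeR adjusted p = 9.81e-13), SLC2A1, the glucose transporter GLUT1, by 0.88 (9.37e-11), and PFKFB3, a regulator of glycolysis, by 0.58 (5.48e-08). HK2, hexokinase 2, was at 0.18 there (edgeR adjusted p = 0.0539), and it passed in 8 of the 9 fits with another scaling, test, filter or set of terms, such as TMM scaling (0.25, 0.00858) and DESeq2 (0.24, 0.00919). HK2 was higher with dTAG without serum by 0.27 (edgeR adjusted p = 0.0318), a call that was lost with library sizes from the spike-ins (0.31, adjusted p = 0.121), with only the libraries compared (0.26, 0.0583) and without any 1 of DMSO-S0 replicates 1 and 2, DMSO-S30 replicates 1 and 3, dTAG-S0 replicate 3 and dTAG-S30 replicate 3 (HK2 values of 0.22 to 0.27, adjusted p of 0.0512 to 0.314). Among 2 tested relatives of the arrestins, ARRDC2 rose with serum by 0.47 (edgeR adjusted p = 0.000182) and ARRDC1 was at 0.01.

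Around IRS2, INSR and PIK3IP1, 24 other genes of insulin and PI3K-AKT signalling were tested. With serum in DMSO-treated cells 2 rose and 7 fell, where 9.18% of all genes rose and 17.1% fell, with a median log2 fold change of -0.06 against -0.07 over all genes. IER3, an early response gene, rose by 1.61 (edgeR adjusted p = 1.00e-16) and SGK1, a kinase related to AKT that also phosphorylates FOXO3, by 0.84 (0.0045). PIK3CD, a catalytic subunit of PI3K, fell (-0.42, edgeR adjusted p = 0.0017). IRS1, the other main insulin receptor substrate, was at 0.18 with serum in DMSO-treated cells (edgeR adjusted p = 0.0572), and it passed in 7 of the 9 other fits, such as TMM scaling (0.26, 0.0102) and DESeq2 (0.25, 0.0114). IRS1 was lower with dTAG without serum (-0.35, edgeR adjusted p = 0.0081), whereas IRS2 was at 0.00 there. The IRS1 call in the absence of serum was lost without DMSO-S0 replicate 2 (-0.30, adjusted p = 0.0735) and with library sizes from the spike-ins (-0.31, 0.112).

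The small lists of binding partners were read for serum in DMSO-treated cells, where 9.18% of all genes rose and 17.1% fell. Of 4 thioredoxin genes 1 rose, the mitochondrial TXN2 (0.38, edgeR adjusted p = 0.000122). Of 4 relatives and coactivators of CITED2 1 rose, CITED4 (0.91, edgeR adjusted p = 0.0385), on 14 to 23 counts in DMSO-S0 and 27 to 45 in DMSO-S30. That CITED4 call was lost under DESeq2 (0.98, adjusted p = 0.0504), with library sizes from the spike-ins (0.91, 0.0625) and without DMSO-S30 replicate 3 (0.64, 0.221), DMSO-S0 replicate 2 (0.82, 0.143) or DMSO-S0 replicate 3 (0.76, 0.167). Of 3 tested corepressors of BCL6 1 rose, BCOR (0.18, edgeR adjusted p = 0.0399), and 1 fell, NCOR1 (-0.18, 0.0278). The BCOR call was lost with library sizes from the spike-ins (0.25, adjusted p = 0.0691) and without any 1 of DMSO-S0 replicate 2, DMSO-S30 replicates 1 and 3 and dTAG-S0 replicate 1 (BCOR values of 0.12 to 0.18, adjusted p of 0.0512 to 0.247). The NCOR1 call was lost under TMM scaling (-0.11, adjusted p = 0.220), with library sizes from the spike-ins (-0.10, 0.532), under DESeq2 (-0.11, 0.191) and without any 1 of DMSO-S0 replicates 2 and 3 and DMSO-S30 replicates 1 and 2 (NCOR1 values of -0.18 to -0.15, adjusted p of 0.0511 to 0.140). None of 4 genes of the cyclin G and cyclin-dependent kinase 5 list passed the edgeR test there, where 26.3% of all genes did. Of these 4, 0 were at an unadjusted p under 0.05.

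**Figure D4:**
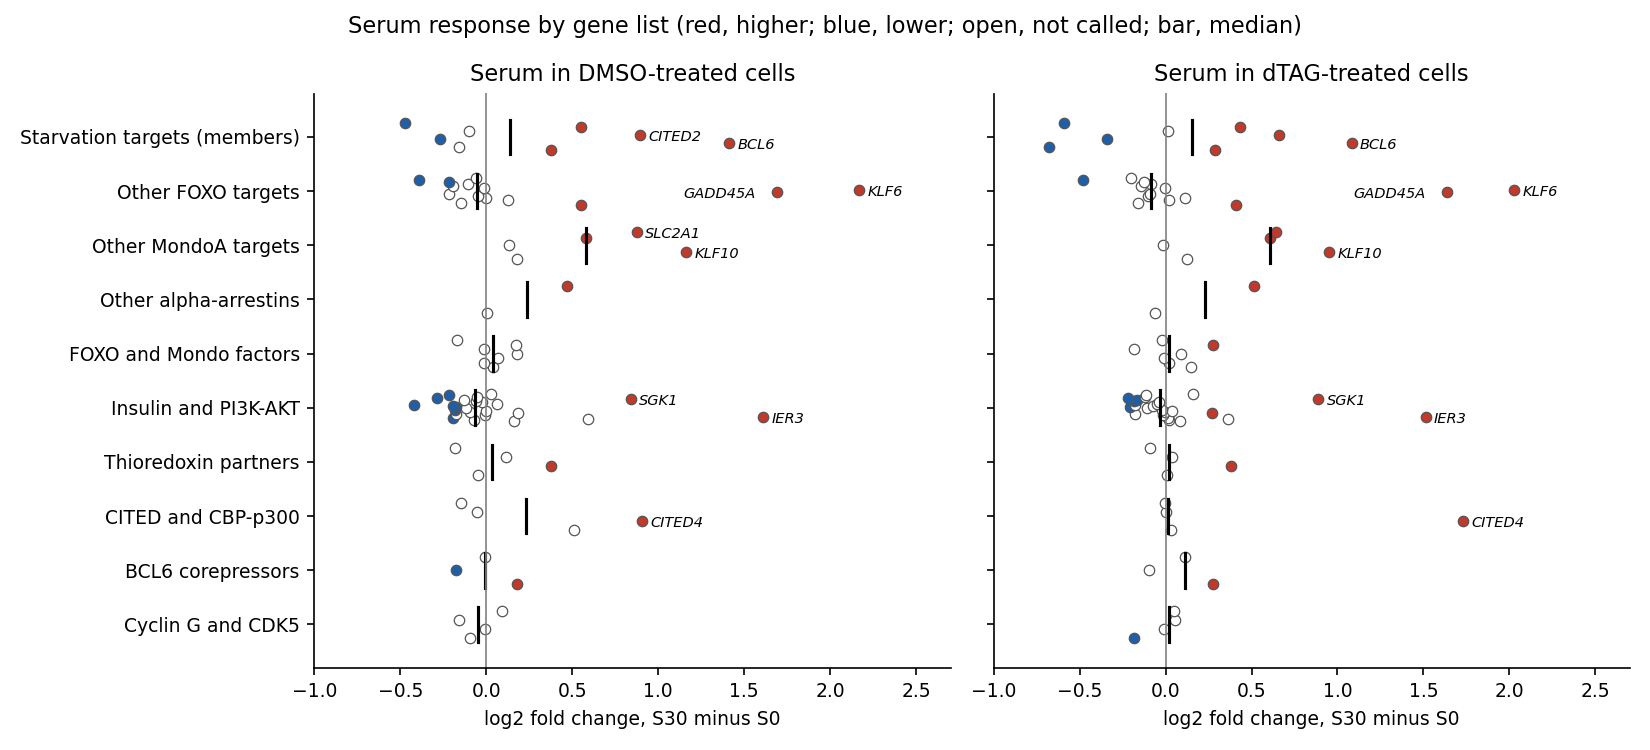
Log2 fold change with serum (horizontal axis) of every tested gene of the starvation targets and of 9 related lists (vertical axis), in DMSO-treated cells (left) and dTAG-treated cells (right), with a point for each gene and a bar at the median of its list. Red points were called higher and blue points lower. KLF6 at 2.17 and GADD45A at 1.69 lie farthest right on the left panel, and most points of the insulin and PI3K-AKT list lie near 0.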

How the data were processed

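RNA-Seq libraries from 12 HCT116 KAP1-dTAG cultures, 3 replicates in each of 4 groups given by the labels, were analysed. Per the methods and labels, the authors trimmed reads (Trim Galore 0.6.4), mapped them to hg38 with STAR and deposited raw read counts per protein-coding gene, introns included, and per ERCC transcript (featureCounts, Subread 1.6.3). The strand and multimapping settings are not given in the sources used here. The members and lists were chosen with earlier results of these data known.

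Genes with at least 10 counts in 6 or more libraries (13093) were scaled by upper quartile. All 12 libraries were fitted together with 1 ERCC factor, computed as in RUVg, in edgeR 4.0.16 (R 4.3.3; quasi-likelihood F-test, two-sided, Benjamini-Hochberg over all genes tested, called at an adjusted p under 0.05), after tests on simulated data. The main test differs from the study's likelihood ratio test, which was an alternative beside TMM, ERCC library sizes, other ERCC factors, DESeq2 1.42.0, no count filter, subsets of libraries and a replicate block. Confidence intervals (95%) are from the fit. Symbols were matched to 19802 of 19901 identifiers, and SOD2 was not matched. All starvation targets were named, and from each other list up to 3 genes with the largest called serum change in DMSO-treated cells, those called with dTAG, and every tested FOXO or Mondo factor. A rule that would have named genes resembling TXNIP could not be applied, since TXNIP was at 0. Replicates differed by 3.02 to 9.81 times the chi-square per degree of freedom that sampling gives, so none was counted as a duplicate. The limit given for a count of 0 covers counting error only.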

Additional observations from a re-analysis of the deposited data

Results flagged for a closer look

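Among the genes named here 1 had a serum response that differed between the treatments by the interaction test. The serum response of ATF3, used to check the serum labels, was 6.06 on the log2 scale with DMSO and 5.36 with dTAG, an interaction of -0.70 (edgeR adjusted p = 0.00604). It no longer passed with ERCC library sizes (-0.72, adjusted p = 0.0522), without DMSO-S0 replicate 2 (-0.61, 0.0727) or without dTAG-S0 replicate 3 (-0.65, 0.0654).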

How the results depend on the processing

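Among the 8 starvation targets, all calls with serum kept their direction and passed under every alternative run, except CCNG2 in DMSO-treated cells with ERCC library sizes. Members called with dTAG went from 0 to 1 without serum when DMSO-S0 replicate 2 was left out (range 0 to 1) and to 1 with serum with no count filter. With serum in DMSO-treated cells 3439 genes were called, 1766 with ERCC library sizes and 2473 to 3719 with 1 library left out, and in dTAG-treated cells 3203, 1646 and 2137 to 3974. With dTAG without serum 171 genes were called, 76 with ERCC library sizes, 287 by the likelihood ratio test, 275 with no count filter and 67 to 272 with 1 library left out. With dTAG and serum 161 were called, and 66, 266, 406 and 95 to 257 in the same order. For the interaction, 5 genes became 8 under TMM, 3 with ERCC library sizes, 9 with 2 ERCC factors, 10 by the likelihood ratio test, 11 with DESeq2, 29 with no count filter and 4 to 8 with 1 library left out. The cause was not tested. Scaling set the direction of the serum calls over all genes: 35.0% were higher in DMSO-treated cells, against 61.4% under TMM, 66.5% with ERCC library sizes and 60.3% with DESeq2, and 37.2% in dTAG-treated cells, against 61.7%, 62.5% and 60.3%. With dTAG without serum 65.5% were higher, against 80.3% when library sizes came from ERCC reads and 52.7% with no count filter. The median of all genes with serum in DMSO-treated cells was -0.07, and 0.00 under TMM.

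Values that changed sign were near 0 and not called. For serum in DMSO-treated cells, FOXO3 became 0.061 under TMM, 0.070 with ERCC library sizes, 0.0075 with no ERCC factor, 0.052 with DESeq2 and 0.015 with no count filter, and ran from -0.047 to 0.050 with 1 library left out. MLX became 0.058 under TMM, 0.026 with ERCC library sizes and 0.049 with DESeq2, and ran from -0.045 to 0.023. SESN3 became 0.012, 0.021 and 0.0026 under the same 3 alternatives. FOXO1 ran from -0.033 to 0.12 and FOXO4 from -0.018 to 0.17 with 1 library left out. INSR with serum in dTAG-treated cells ran from -0.014 to 0.046. With dTAG without serum, IRS2 became -0.0042 with only the libraries compared and -0.00049 with the replicate block and ran from -0.092 to 0.072, CITED2 became -0.0073 with 2 ERCC factors and -0.011 with no count filter and ran from -0.0021 to 0.087, and INSR ran from -0.079 to 0.034. The ARRDC3 interaction ran from -0.25 to 0.11 and that of PIK3IP1 from -0.18 to 0.041.

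The groups share replicate numbers. Of 18 pairs of libraries with the same number, 1 had a correlation of deviations over 0.1 (range -0.15 to 0.14), and 5 of 12 libraries correlated best with their own number, so the numbers were not taken as pairing. The replicate block gave 3513 genes with serum in DMSO-treated cells, 3279 in dTAG-treated cells and 173 with dTAG without serum, and changed no call of a starvation target. With the replicate block MLXIP (0.18, adjusted p = 0.0238) and HK2 (0.18, 0.0362) passed for serum in DMSO-treated cells. ARRDC4 had the fewest counts of the tested targets, 87 to 179, and the widest confidence intervals.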
